A study of Mus musculus with 8 samples.

Results

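The regions described here are the ChSP peaks of KLF13 that lie in introns, taken as every peak whose deposited annotation begins with Intron. They numbered 337 of the 9506 peaks in the list, or 3.55% (exact 95% binomial interval 3.18 to 3.94). KLF13 was mapped in HT22, an immortalised mouse hippocampal neuron line, of genotype HT22-BirA, in which every library came from cells with a stable biotin ligase (BirA) and a transfected plasmid, pTO-Klf13Bio, for KLF13 that the ligase biotinylates. Crosslinked chromatin was collected 24 h after transfection, and 4 libraries were made from a streptavidin pulldown (chromatin streptavidin precipitation, ChSP) and 4 from input chromatin with no pulldown. KLF13 was therefore supplied by a plasmid in all cells, and there was no pulldown from cells without it, so capture on streptavidin that does not involve KLF13 cannot be told apart from KLF13 binding. For each peak the list holds a fold of ChSP over input and a p, both calculated by the authors over all libraries together. No value per library was used, so the values below carry no replicate error and the depth is unknown, and the comparisons between peak classes are descriptions of the list with no test. Binomial intervals cover counting error only.

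KLF13 is a zinc finger transcription factor of the Krüppel-like family, which binds GC-rich DNA such as GC boxes and CACCC elements and can repress genes by recruiting the SIN3 corepressor. Introns are removed from the primary transcript, but their DNA can hold enhancers, silencers and internal promoters. The intron nearest the start of a gene is often rich in such elements, and an alternative start inside a gene makes a region intronic for one transcript and promoter for another. The authors' annotation gives the promoter class precedence, up to 3 kb from a transcription start site (TSS), and a peak was called intronic only beyond that: the intronic peak nearest to the TSS of its assigned gene lay 3038 bp away.

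Some of the intronic peaks lay at or near starts given by a different gene set, RefSeq on GRCm38.p6. Some of these starts belonged to the host gene, the gene whose intron holds the peak. Windows of 250 bases before to 50 bases after each RefSeq start were held for all chromosomes of the list but 1, and 15 of the 329 intronic peaks on those chromosomes overlapped one (4.56%, exact 95% interval 2.57 to 7.41). The share was 9.05% of 674 distal intergenic peaks, 5.39% of 427 exonic or UTR peaks and 64.4% of 7784 promoter peaks. The start itself lay inside the peak for 14 of the 17 windows overlapped, and in 9 of the 15 peaks a window belonged to the host gene: Celf2, Wiz, Srebf1, Dlg4, Rtkn, Rap1gap2, Fgf13, Esrrg and Hip1. The 6 whose 250 upstream bases fell wholly inside the peak are shown, because their letters are DNA of the peaks themselves, while the other windows reached partly or wholly outside the peak. Each is read 5′ to 3′ on the strand of the gene and ends at the base before the start, with GC boxes (GGGCGG or its reverse complement CCGCCC) and CACCC elements (or GGGTG) in capitals. The sequences are from RefSeq on GRCm38.p6.
Celf2, chr2:6872036-6872285, minus strand: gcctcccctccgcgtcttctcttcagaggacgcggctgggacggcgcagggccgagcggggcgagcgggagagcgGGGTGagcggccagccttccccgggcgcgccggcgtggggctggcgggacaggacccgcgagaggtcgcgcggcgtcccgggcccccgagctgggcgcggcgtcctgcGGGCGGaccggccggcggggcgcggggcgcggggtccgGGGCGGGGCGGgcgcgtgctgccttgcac
Wiz, chr17:32364464-32364713, minus strand: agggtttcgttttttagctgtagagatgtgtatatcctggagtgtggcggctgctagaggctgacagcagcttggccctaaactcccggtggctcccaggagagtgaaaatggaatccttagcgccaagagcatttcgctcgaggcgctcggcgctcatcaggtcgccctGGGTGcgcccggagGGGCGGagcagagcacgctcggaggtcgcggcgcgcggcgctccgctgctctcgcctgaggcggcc
Srebf1, chr11:60210472-60210721, minus strand: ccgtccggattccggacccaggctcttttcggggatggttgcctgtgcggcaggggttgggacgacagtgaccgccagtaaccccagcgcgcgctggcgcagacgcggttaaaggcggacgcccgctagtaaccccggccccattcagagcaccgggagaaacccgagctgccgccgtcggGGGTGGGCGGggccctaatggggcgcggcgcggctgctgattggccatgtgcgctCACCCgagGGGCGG
Dlg4, chr11:70023732-70023981, plus strand: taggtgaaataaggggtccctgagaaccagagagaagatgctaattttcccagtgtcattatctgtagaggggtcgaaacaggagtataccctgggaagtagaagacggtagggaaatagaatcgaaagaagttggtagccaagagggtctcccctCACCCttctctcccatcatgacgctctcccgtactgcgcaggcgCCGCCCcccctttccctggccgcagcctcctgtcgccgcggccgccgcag
Rap1gap2, chr11:74522802-74523051, minus strand: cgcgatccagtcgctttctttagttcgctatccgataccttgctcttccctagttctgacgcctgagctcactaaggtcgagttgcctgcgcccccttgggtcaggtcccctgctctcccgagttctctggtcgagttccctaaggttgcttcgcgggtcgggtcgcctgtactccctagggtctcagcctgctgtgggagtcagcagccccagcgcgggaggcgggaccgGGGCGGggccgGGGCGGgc
Hip1, chr5:135489230-135489479, minus strand: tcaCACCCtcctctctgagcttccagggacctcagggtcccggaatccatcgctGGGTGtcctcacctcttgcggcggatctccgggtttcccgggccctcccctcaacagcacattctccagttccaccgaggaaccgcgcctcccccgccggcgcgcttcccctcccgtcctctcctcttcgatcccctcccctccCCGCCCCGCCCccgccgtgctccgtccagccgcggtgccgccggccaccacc

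The Celf2 stretch was 82.8% G and C and held 3 GC boxes and 1 CACCC element, and those of Hip1 (71.2%) and Srebf1 (70.8%) held 2 of each. The Wiz (64.0%) and Dlg4 (56.8%) stretches held 1 of each motif, and the Rap1gap2 stretch (65.2%) held 2 GC boxes and no CACCC element. All 6 stretches therefore held a GC box and 5 of the 6 a CACCC element, and so few stretches give no firm share. Among 3424 stretches of the same kind that lay wholly inside a peak within 1 kb of a TSS, 88.6% held a GC box and 63.6% a CACCC element. Over all 32817 RefSeq stretches the shares were 32.7% and 52.0%. Some of these motifs overlap: 2 of the 3 GC boxes of Celf2 share a base, as do the 2 GC boxes of Hip1. In the Srebf1 stretch 1 GC box and 1 CACCC element do so too. Base composition moves with these shares: the median G and C content was 68.0% in the 6 stretches, 72.4% inside promoter peaks and 52.4% over all. The longer element GGTGTGG (or CCACACC) and the AP-1 site TGACTCA (or TGAGTCA) were in none of the 6, in 5.61% and 1.31% of stretches inside promoter peaks and in 6.52% and 4.46% of all. The part of base composition in these shares was not tested.

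The 9 peaks that overlapped a window of their host gene carried folds from 10.7 to 41.7. In Fgf13 and Esrrg the start of the host lay outside the peak, and in the others inside it. Celf2, a regulator of RNA splicing, had the highest, 41.7, in intron 1 of 11 (the authors' p = 1.31e-18), and Wiz, a zinc finger partner of the G9a and GLP histone methyltransferases, had 39.0. Srebf1, which encodes the sterol and fatty acid regulator SREBP1, had 26.9 in intron 1 of 18, although the deposited list assigns that peak to the microRNA gene Mir6922. Dlg4, which encodes the postsynaptic scaffold PSD-95, had 21.4, and Rtkn had 20.5. Rap1gap2, which acts on the small GTPase Rap1, had 20.0, Fgf13 had 19.6 and Esrrg, an orphan nuclear receptor gene, had 15.8. Hip1, a clathrin adaptor gene, had the lowest, 10.7. Celf2, Srebf1, Dlg4, Rtkn and Hip1 had no peak assigned within 1 kb of a TSS, so for these 5 genes the peak at the internal start was not accompanied by an annotated promoter peak. The median fold was 20.0 over the 15 peaks that overlapped a RefSeq window and 16.6 over the other 314, and their median widths were 500 and 400 bp.

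Intronic peaks were weaker and narrower than promoter peaks, and their median fold lay near those of the other classes far from a TSS. Their fold ran from 2.11 to 65.0 with a median of 16.7 (quartiles 12.2 and 21.8). The median was 21.9 over 7999 promoter peaks, here those within 3 kb of a TSS, 17.6 over 444 exonic or UTR peaks and 17.2 over 698 distal intergenic peaks. A fold of 30 or more was reached by 23 intronic peaks (6.82%, exact 95% interval 4.38 to 10.1), against 22% of the whole list. It was reached by 24.6% of promoter peaks, 5.63% of exonic or UTR peaks and 9.89% of distal intergenic peaks. Of the 4753 peaks with the smallest p, which are 50% of the list, 62 were intronic, or 18.4% of the intronic peaks, against 55.3% of the promoter peaks, 24.5% of exonic or UTR peaks and 21.9% of distal intergenic peaks. The median of the authors' p was 5.61e-08 for intronic, 7.03e-13 for promoter, 5.75e-10 for exonic or UTR and 1.45e-08 for distal intergenic peaks. At the weak end, 29 intronic peaks (8.61%) had a fold below 7, against 1.8% of the list, 0.475% of promoter peaks, 0.450% of exonic or UTR peaks and 14.5% of distal intergenic peaks. By this measure intronic peaks stood between exonic or UTR and distal intergenic peaks. Of the 29, 13 lay in a single stretch of chromosome X described below. Outside it the shares were 4.95% of intronic, 0.452% of exonic or UTR and 9.68% of distal intergenic peaks, in the same order.

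**Figure D1:**
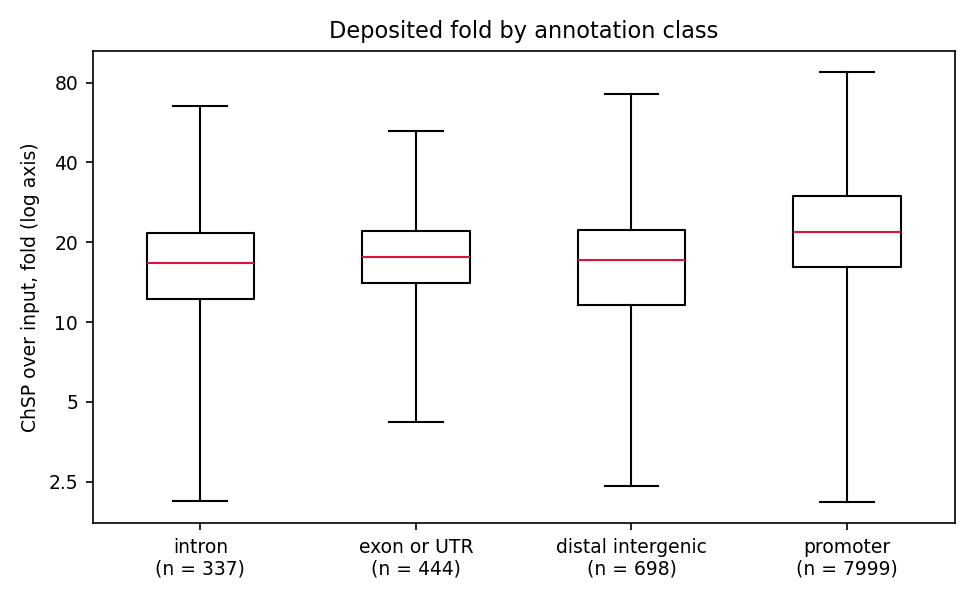
Deposited fold of ChSP over input (log axis) by annotation class, with the red line at the median, the box at the quartiles and the whiskers at the lowest and highest peak. The intronic median of 16.7 lies beside those of the exonic or UTR (17.6) and distal intergenic (17.2) classes and under the promoter median of 21.9.

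Width moved with fold. The median intronic peak was 400 bp wide (quartiles 300 and 600), against 700 bp at promoters, 550 bp in exons and UTRs and 500 bp in distal intergenic DNA. Peaks of 200 bp, the narrowest in the list, made up 20.8% of intronic peaks and 4.41% of promoter peaks. Among peaks of 200 to 300 bp the median fold was 12.4 over 129 intronic peaks and 12.6 over 924 promoter peaks. At 400 to 500 bp the intronic median was the higher, 17.5 over 113 peaks against 16.1 over 1638 promoter peaks. At 600 to 700 bp it was 20.0 over 62 peaks against 22.2, and at 800 to 1000 bp 23.1 over 23 peaks against 27.5. Only 10 intronic peaks were wider than 1000 bp, with a median fold of 25.8 against 31.3 at promoters. Intronic and promoter peaks of up to 500 bp therefore had medians within 0.12 of each other on the log2 scale, while over all widths the log2 ratio was -0.39.

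**Figure D2:**
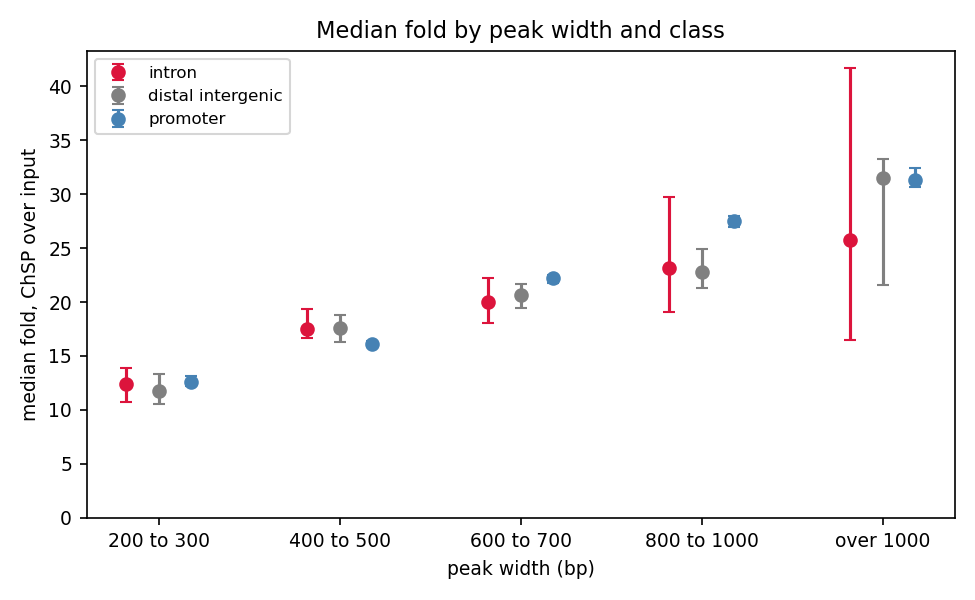
Median fold of ChSP over input by peak width for intronic, distal intergenic and promoter peaks, with bars for the 95% interval of the median from its order statistics over peaks, which are not replicates. The intronic and promoter medians are 12.4 and 12.6 at 200 to 300 bp, and 23.1 and 27.5 at 800 to 1000 bp.

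Introns 1 held the largest share of any intron number. There were 125 peaks in an intron 1, or 37.1% of the intronic peaks (exact 95% interval 31.9 to 42.5), 61 in an intron 2 (18.1%) and 40 in an intron 3 (11.9%). Introns 4 to 6 held 49, introns 7 to 12 held 31, and introns 13 and beyond held 31. The annotated transcripts had a median of 10 introns, and 19 peaks lay in the only intron of a transcript. Were each peak equally likely to fall in any intron of its transcript, whatever the introns' lengths, 18.8% would lie in an intron 1. Among the 260 peaks in transcripts with 5 or more introns the share was 30.4% (24.9 to 36.4), against 9.17% on that count. Intron lengths were not used here, so how far the share follows the length of introns 1 was not tested.

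Median folds of introns 1 and later introns lay close together. The median was 17.2 over the 125 peaks of introns 1 (range 2.11 to 65.0, quartiles 11.97 and 21.8) and 16.5 over the 212 peaks of later introns (range 2.48 to 39.98, quartiles 12.2 and 21.8), so the ranges of the groups overlapped almost entirely. Both groups had a median width of 400 bp. A fold of 30 or more was reached by 7 peaks of introns 1 (5.60%) and 16 of later introns (7.55%), while 23.2% and 15.6% of them were among the 4753 smallest p. The medians were 17.8 in introns 2, 16.3 in introns 3, 16.7 in introns 4 to 6, 13.8 in introns 7 to 12 and 16.5 from intron 13 on. Of the 31 peaks in introns 7 to 12, 5 came from the low-fold stretch of chromosome X described below.

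**Figure D3:**
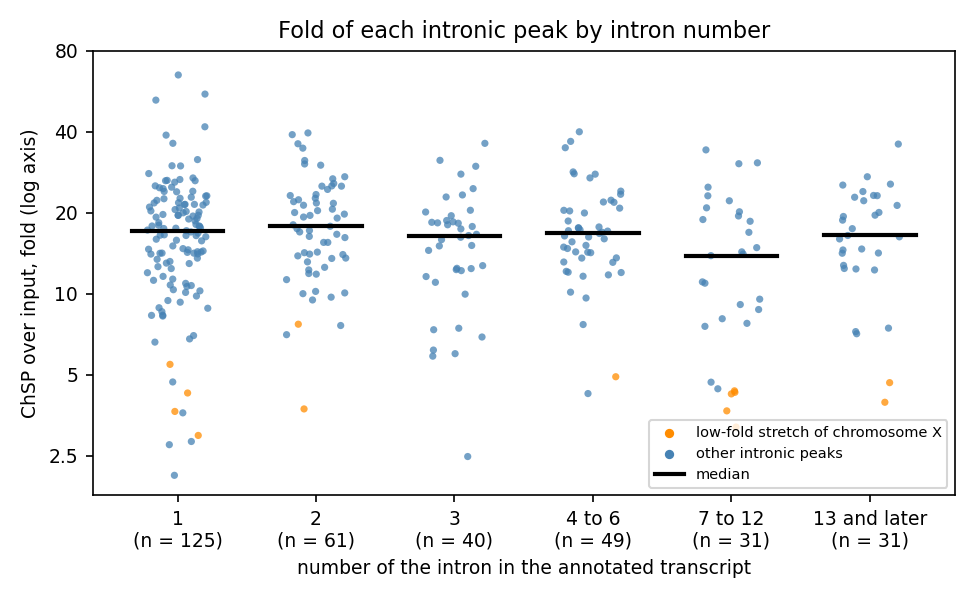
Fold of each of the 337 intronic peaks (log axis) by the number of the intron in its annotated transcript, with the median of each group as a black line and the 14 peaks of the low-fold stretch of chromosome X in orange. Medians run from 13.8 to 17.8 and the groups overlap throughout.

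Median fold did not rise or fall steadily with distance from the start. The median distance of an intronic peak from the TSS of its assigned gene was 21266 bp (quartiles 9048 and 39189 bp), 12127 bp in introns 1 and 24928 bp in later ones, and 243 lay beyond 10 kb. The median fold was 16.3 over 41 peaks at 3 to 5 kb, 16.97 over 53 at 5 to 10 kb, 16.6 over 102 at 10 to 25 kb, 17.7 over 106 at 25 to 100 kb and 14.3 over 35 beyond 100 kb. The peak farthest out, at 877 kb, lay in intron 5 of 10 of Il1rapl1, an interleukin receptor accessory protein-like gene of synapses, and had a fold of 7.68 (the authors' p = 1.07e-14). Next among peaks in named host genes was that in Wwox, an oxidoreductase gene, at 502 kb from the TSS of Maf (fold 11.1). After it came the peak in the neuronal transcription factor gene Npas3, at 368 kb from the TSS of Egln3 (20.8). Left out of this order were peaks in a transcript with no gene identifier. They lay 503, 503 and 400 kb from the TSS of 1700030C10Rik (folds 22.6, 17.4 and 13.5). A peak in Nell1, a secreted signalling protein gene, lay 283 kb out (13.8), and 1 of the pair in Camk1d, a calcium/calmodulin-dependent kinase gene, lay 242 kb from the TSS of Ccdc3 (6.17).

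The gene named for a peak was not always the gene that held it. The assigned gene, the one with the nearest TSS, was the host for 245 peaks (72.7%, exact 95% interval 67.6 to 77.4) and was not matched to it for 92. Host identifiers matched a RefSeq gene for 314 peaks, in 274 genes, and the other 23 lay in transcripts with no gene identifier in the list. Those 23 could not match an assigned gene and are counted in the 92. Of the 314 peaks with a matched host, 69 were assigned to another gene. Peaks in Pacs1, a membrane traffic gene, were assigned to Klc2, in Slco5a1, a transporter gene, to Sulf1, in Setd2, a histone H3 methyltransferase gene, to Nradd, and in Cdh4, a cadherin gene, to Taf4. An annotated transcript can also reach past the RefSeq bounds of its gene: 9 peaks lay outside them, among them the peak listed under Epo. One peak lay in intron 46 of a transcript listed with 1299 introns and had a fold of 7.45.

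Host genes were long. The 261 protein-coding hosts, 1.19% of 21900 protein-coding genes, had a median length of 99.2 kb (quartiles 45.0 and 220 kb), against 17.1 kb over all protein-coding genes and 34.6 kb over those with a peak within 1 kb of a TSS. Of the hosts, 129 (49.4%, exact 95% interval 43.2 to 55.7) were 100 kb or longer, against 11.1% of all protein-coding genes and 20.5% of genes with a promoter peak. A longer gene offers more intron, and the share of this in the choice of hosts was not tested. Of the 239 peaks that could be placed on a host with known strand, counted in 4 equal stretches from the 5′ end, 67 (28.0%) lay in the first stretch, 69 (28.9%) in the next, 61 (25.5%) in the third and 42 (17.6%) in the last.

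The strongest intronic peak was in Acaca, which encodes acetyl-CoA carboxylase, the enzyme that commits acetyl-CoA to fatty acid synthesis. It lay at chromosome 11, 84179301 to 84180300, in intron 1 of 3 of the annotated transcript and 5.98 kb from the nearest TSS, with a fold of 65.0 (the authors' p = 2.09e-29), the smallest p among the intronic peaks. Apba1, an adaptor of the amyloid precursor protein, had 55.2 in its intron 1, at chromosome 19, 23781901 to 23782500 (the authors' p = 4.57e-15). The peak under the erythropoietin gene identifier, Epo, had 52.4 at chromosome 5, 137510001 to 137511200 (the authors' p = 9.67e-25). It lay at -7.57 kb relative to the TSS of Pop7, a ribonuclease P subunit gene, and outside the RefSeq bounds of Epo. After these 3 the folds dropped to 41.7 in Celf2, described above.

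Among the other hosts of the 20 highest folds, Zfp236, a zinc finger gene, had 39.98 in intron 6 of 29, Ebf3, a transcription factor gene of developing neurons, had 36.8 in intron 4 of 15, and Zfp385a, another zinc finger gene, had 34.8 in intron 2 of 7. Ahdc1, an AT-hook protein gene, had 36.1 over 1100 bp (the authors' p = 5.16e-20). Chd9, a chromodomain helicase gene, had 31.3 in a peak 1400 bp wide in intron 2 of 39 at chromosome 8, 90907901 to 90909300 (the authors' p = 4.49e-21). Rere, an atrophin family corepressor gene, had 30.7 in intron 11 of 22.

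Of the remaining hosts of the 20 highest folds, Shank1, a postsynaptic scaffold gene, had 36.0 in intron 15 of 24, and Unc5a, a netrin receptor gene, had 31.5 in intron 1 of 15. Sipa1l3, of a family that acts on the small GTPase Rap, had 39.6 in intron 2 of 22, Asap2, which acts on the small GTPase Arf, had 36.2 in intron 1 of 27, and Adam12, a metalloprotease gene, had 36.2 in intron 3 of 22. Opalin, an oligodendrocyte membrane protein gene, had 34.9, in intron 5 of 5. Pacs1 had 34.2 and Atp23, a mitochondrial protease gene, had 31.3. Rab11fip4, an effector of the small GTPase Rab11, had 29.8 with one of the 5 smallest values of the authors' p, 2.43e-21. The widest intronic peaks were in Agap1 (1900 bp, fold 24.0), the splicing factor gene Rbfox3, whose product is the neuronal marker NeuN (1500 bp, 16.4), Chd9, Celf2 and Agap3 (1300 bp, 16.5).

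Most hosts had a promoter peak as well. Of the 337 intronic peaks, 205 (60.8%, exact 95% interval 55.4 to 66.1) lay in a gene with a peak assigned within 1 kb of a TSS. By gene this was 176 of 261 protein-coding hosts (67.4%, 61.4 to 73.1), against 30.9% of all protein-coding genes, and 33.6% of those had an assigned peak of any class. Promoter peaks were more frequent in long genes too (20.5% of genes with one were 100 kb or longer, against 11.1% of all), and the part of gene length in this share was not tested. Median intronic folds were close with and without a promoter peak in the host, at 16.9 over 205 peaks and 16.6 over 132, although 18 and 5 of them reached a fold of 30. The 132 include the 23 peaks with no matched host gene, for which a host promoter peak could not be found. The 60.8% above counts them as without one.

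Within a host the promoter was usually the stronger site. Of 179 genes with both, the highest promoter fold exceeded the highest intronic fold in 126 (70.4%), and the medians were 23.8 and 17.2. The median log2 ratio of intronic over promoter fold was -0.46 (quartiles -0.98 and 0.09). The promoter peak was wider in 128 genes, the intronic peak in 39, and 12 had the same width. The widest gap was in Tcf7l2, a transcription factor gene of Wnt signalling, with 70.1 at the promoter and 12.3 in intron 3. Kdm2b, a histone demethylase gene, had 50.7 and 22.3, Asap2 63.1 and 36.2, and Pacs1 52.0 and 34.2. The opposite order was found in 53 genes, 12 of them by a ratio of 2 or more. Sipa1l3 led these, with 39.6 in the intron and 9.10 at the promoter, and Shank1 had 36.0 and 17.7. Acaca had 65.0 and 39.99, Apba1 55.2 and 32.9, Adam12 36.2 and 18.7, and Zfp385a 34.8 and 17.4. Zfp236 (39.98 and 38.7), Rere (30.7 and 31.2) and Atp23 (31.3 and 29.3) had nearly equal folds at both sites.

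**Figure D4:**
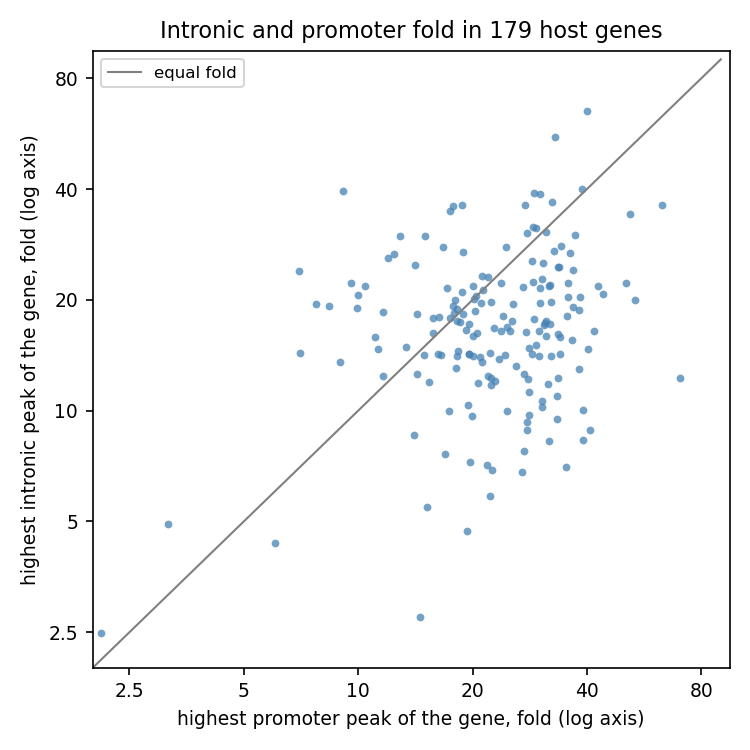
Highest intronic fold against highest promoter fold (both log axes) in the 179 host genes with both, with a line at equal fold. The promoter fold is higher in 126 genes, below the line, and the intronic fold in 53, above it.

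In 29 of the 274 matched hosts there were at least 2 intronic peaks, 69 peaks in all. Bcor, which encodes a corepressor found with BCL6 and in a Polycomb complex, had by far the most, 8, all in its intron 1 of 13 and spread over 53.4 kb of chromosome X from 12087101 to 12140500. Their folds were 38.9, 29.8, 25.2, 23.1, 20.3, 18.6, 18.1 and 17.2. By coordinate they form separate groups, the 4 strongest from 12087101 to 12092000 and the other 4 from 12128301 to 12140500. Relative to the TSS the list assigns to each, the 4 strongest lay at -10.5 to -6.55 kb and the other 4 at 19.9 to 31.7 kb. These distances are from different starts of Bcor. The highest promoter fold of Bcor was 30.1. Its paralogue Bcorl1 had 1 intronic peak, with a fold of 16.3.

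The other genes with several had 2 to 5 each. Rai1, a transcriptional regulator gene, had 30.04 and 17.6, Rere 30.7 and 12.4, and Cyp26b1, which degrades retinoic acid, 30.4 and 11.6. Casz1, a zinc finger gene, had 27.8 and 23.3 in intron 3 in neighbouring peaks. Rnf220, a ubiquitin ligase gene, had 26.7 and 13.1, Ttc28 25.1 and 9.11, and Macrod1 24.6 and 12.7. Ldb3, a muscle Z-disc gene, had 23.1 and 19.6, the antisense transcript gene Nkx2-2os 22.8 and 20.8, and Fgf13 21.8 and 19.6. Unc45b, a myosin chaperone gene, had 3 in intron 13 with folds of 20.0, 18.8 and 15.98, Hip1 had 20.0 and 10.7, Mxi1, an antagonist of MYC, 18.7 and 14.2, and Arhgef4 18.3 and 12.4. The pairs in Casz1, Macrod1, Nkx2-2os, Arhgef4 and Fgf13, and 2 of the Unc45b peaks, lay only 101 to 401 bp apart. Whether each such pair is 1 region split by the peak calling was not tested. Of all intronic peaks, 29.4% lay within 10 kb of another peak of the list, against 25.3% of all peaks, 23.4% of promoter peaks, 31.8% of distal intergenic peaks and 44.8% of exonic or UTR peaks.

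A stretch of chromosome X held 14 intronic peaks of low fold. It ran from 162158801 to 164419500 and held 66 peaks in all, 37 of them intergenic and 13 at promoters, with a median fold of 4.65 over all and 6.05 over the promoter peaks. The intronic peaks there had folds of 2.97 to 7.70 (median 4.26), widths of 200 or 300 bp and p between 5.97e-08 and 9.37e-06. They lay in 6 genes: 5 in Ctps2, a CTP synthase gene, 3 in Car5b, a mitochondrial carbonic anhydrase gene, 2 in Reps2, 2 in Grpr, the gastrin-releasing peptide receptor gene, and 1 each in Zrsr2 and Vegfd. None of these 14 intronic peaks reached the 4753 smallest p. Peaks of other classes in the stretch could have a far smaller p: the highest promoter peak of Reps2 had a fold of 15.2 (the authors' p = 9.65e-67). Intronic peaks made up 12.8% of the 243 peaks on chromosome X and 3.30% of the 9262 on the autosomes. Without the stretch the share on chromosome X was 9.60% of 177 peaks (exact 95% interval 5.70 to 14.9), and 8 of those 17 intronic peaks were in Bcor.

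Outside the stretch, 16 intronic peaks had a fold below 7, and 8 of these had a p below 1e-10, which no intronic peak of the stretch had. Kctd16, a GABA-B receptor auxiliary subunit gene, had the lowest intronic fold, 2.11, beside a second peak with 2.82 (the authors' p = 1.38e-15), and Sfi1, a centrosome gene, had 2.48 (the authors' p = 1.22e-11). Sfi1 had a fold of 2.102 at its promoter too. Filip1l, Camk1d, Fbxw4 and Cldn34d, named here after their values were seen, were among the rest of the 8, with folds of 3.61 to 6.90. In these genes a low ratio went with a small p, so the order by fold and the order by p differ there, and the read depth behind either was not used here.

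**Figure D5:**
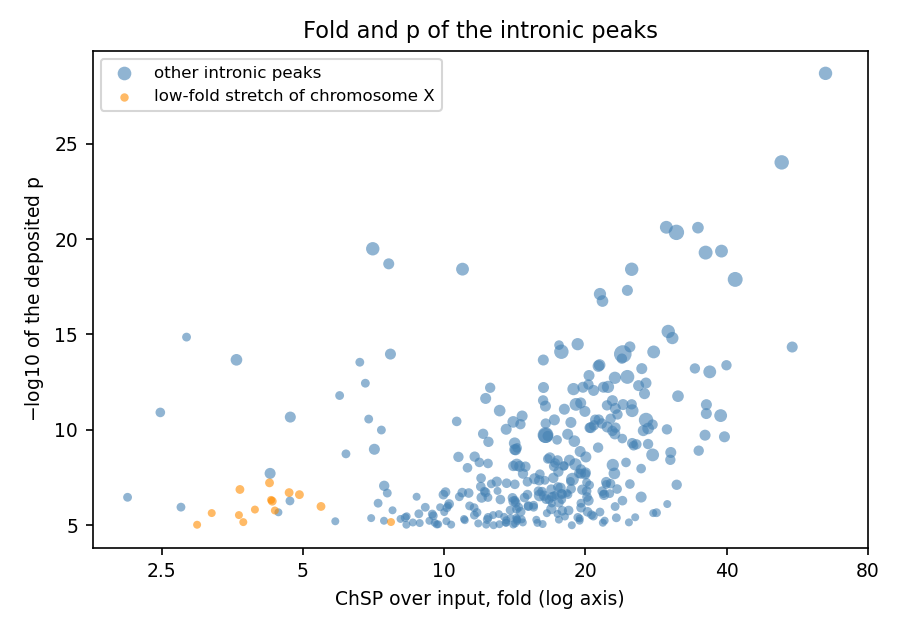
Fold (log axis) against the negative log10 of the deposited p for the 337 intronic peaks, with larger points for wider peaks and the stretch of chromosome X in orange. Most peaks rise together towards Acaca at a fold of 65.0, the stretch lies at folds of 2.97 to 7.70, and a few peaks such as Kctd16 (fold 2.82, the authors' p = 1.38e-15) join a low fold to a small p.

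Of 10 lists of genes by function, 8 had members with an intronic peak. The members of each list that held an intronic peak are set beside those with any assigned peak. Over all protein-coding genes, 1.19% held an intronic peak and 33.6% had an assigned peak of any class. The lists differ in gene length, with medians of 70.7 to 224 kb in the 8 lists of signalling, neuronal, structural and nuclear genes against 17.1 kb over all genes, and the part of length in the counts was not tested.

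Cytoskeleton and adhesion genes had an intronic peak in 5 of 55 members, while 42 had any peak. They were Tns3 (fold 23.1) and Tns1 (18.04), which link actin to integrins, Dst (22.8, in intron 60 of 102) and Macf1 (8.26), which join actin and microtubules, and Cdh4 (9.96). Small GTPase regulators had 4 of 54, while 46 had any peak, at Asap2 (36.2), Iqsec1 (28.0) and Agap1 (24.0), which act on Arf proteins, and Tiam1 (20.1), an activator of Rac. cAMP and calcium signalling genes had 4 of 54, while 43 had any peak, at the phosphodiesterase genes Pde4b (20.4) and Pde4d (19.5), at Prkar2b, a regulatory subunit of protein kinase A (10.2), and at Camk1d (6.90).

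Chromatin regulators had 4 of 64, while 55 had any peak, at Bcor, Bcorl1, Setd2 (25.5, in intron 19 of 20) and Kdm2b (22.3). Genes of TGF-beta, Wnt and Notch signalling had 4 of 59, at the receptor gene Notch3 (20.4), the ligand gene Bmp4 (15.7), the Wnt coreceptor gene Lrp5 (14.3) and Tcf7l2 (12.3), while 52 of the 59 had any peak. Nuclear receptors and their coregulators had 2 of 41, with Esrrg (15.8) among them, while 33 had any peak. Axon growth and guidance genes had 2 of 45, while 30 had any peak, at Unc5a (31.5) and the ephrin receptor gene Ephb2 (15.9), and synapse and ion channel genes 2 of 44, while 33 had any peak, at Apba1 and Dlg4. Glial markers had 0 of 26 and liver and blood markers 0 of 25, with 10 and 1 members having any peak. Their median gene lengths were 20.6 and 10.3 kb. With 1.19% of all protein-coding genes holding an intronic peak, 0 in lists of this size cannot show a difference. Shank1 and Opalin, which hold strong intronic peaks, are a synaptic and a glial gene that the synapse and glial lists do not contain.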

How the data were processed

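The data were 4 KLF13 ChSP and 4 input libraries of HT22 cells. The labels number them but do not say whether the cultures were separate. GRCm38 and, without roles, HOMER 4.9.1, ChIPseeker 1.16.1, BWA 0.7.17-r1188 and FastQC 0.11.3 are listed in the submitters' processing notes. PePr appears as the peak caller in the deposited file's name. Its version and settings, with the scaling of the libraries, are not given in those sources. The fold, a ratio of ChSP to input, and the p-value are the authors' values, deposited once per peak for all libraries together; their columns have no names and were read by the column order of PePr output. The deposited score equals the fold times a constant, and an adjusted p-value is listed too; neither entered the results. Per the file headers, width and distance are annotated per peak, and all widths are multiples of 100 bp.

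Host gene, intron number and number of introns were read from the annotation text. Host identifiers were matched to a RefSeq table of GRCm38.p6, whose coordinates gave gene lengths. No genome sequence was used, so motifs were counted only in RefSeq windows, and the planned count over whole peaks was not run. Shares carry exact (Clopper-Pearson) 95% intervals. Parsing and the intervals of medians, but not those of shares, were tested on simulated data. The members and lists were chosen with earlier results of these data known. Named genes were the hosts of the 20 highest and 5 lowest folds, the 5 smallest p, the 5 widest and the 5 farthest peaks, up to 15 genes with several peaks, and up to 4 per list, leaving out unnamed gene models. Hosts of RefSeq starts, the genes of the chromosome X stretch, the extremes of the promoter comparison, Slco5a1, Bcorl1 and Macf1 were added after their values were seen. Some genes that the rule takes are not reported here. Calculations used matplotlib 3.10.9, scipy 1.17.1, numpy 2.4.6 and pandas 2.3.3 under Python 3.11.15.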

Additional observations from a re-analysis of the deposited data

How the results depend on the processing

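No paired analysis was possible because each peak has a single value from all libraries, so no library could be left out either. Of 40 alternatives over 10 results, 30 kept their direction and stayed within the interval of the main value. For ratios of fold and width this interval covered only the intronic median, or that of introns 1 against later introns. The median of the other group was held fixed, and the mean of log2 fold was set against the same interval of medians. The setting without the stretch of chromosome X was chosen after seeing the data, and under it every result stayed within that interval. Among the 4753 peaks with the smallest p, intronic peaks made up 1.30%, 46.8% of them lay in introns 1, and the log2 ratios of intronic over promoter peaks were -0.31 for median fold and -0.42 for median width, against -0.39 and -0.81 over the whole list. Counting only intronic peaks over 10 kb from the TSS gave a share of 2.56% of the list, and counting only those whose host is the assigned gene gave 2.58%. Both keep all 9506 peaks as the base, so these shares could only be lower. Of the intronic peaks over 10 kb out, 29.6% lay in introns 1. With the mean of log2 fold in place of the median, the difference of intronic peaks was -0.52 from promoter peaks and -0.19 from exonic or UTR peaks (-0.07 by medians), and it turned from -0.04 to 0.0204 against distal intergenic peaks. The cause of the other changes was not tested. Motifs in the central 200 bases of each peak were not counted, because no genome sequence was used here. Without values per library, read depth does not set a limit that can be stated.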
